A study of Rattus norvegicus with 30 samples.

Results

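Rat liver removed 48 h after partial hepatectomy was compared with liver labelled 0 h after hepatectomy. The comparison took the 3 arrays of each group by their labels, 6 arrays of the 30 in the study, and covered all 388 rat miRNA names on the chip, 58 of them star strands (the less abundant strand of a hairpin). All animals were male Wistar rats, and every liver of these groups had undergone a 70% partial hepatectomy, the 0 h group included by its label. Whether the 0 h tissue was the resected part or the remnant was not stated in the labels, so each difference from 0 h holds for that tissue as labelled. Sham animals, used at 48 h and 24 h, had a laparotomy with no resection. Each of the 10 groups held 3 biological replicates, and total RNA with its small fraction was hybridised to a 1-colour chip on which the bound miRNA is extended with biotin-labelled nucleotides.

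The liver is largely quiescent in the adult, and after resection most remaining hepatocytes re-enter the cell cycle and restore liver mass. MicroRNAs are short RNAs that pair with messenger RNAs mainly through their seed, the bases near their 5′ end, and lower the stability and translation of their targets. The let-7 family is known for restraining growth genes such as Ras and Hmga2, and is opposed by Lin28. miR-125, miR-99 and miR-100 lie beside let-7 genes in several clusters, and miR-99 and miR-100 are known to repress mTOR.

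At 48 h, 14 of 388 miRNAs had fallen (3.61%) and 2 had risen (0.515%), which made 16 in all (4.12%, limma with Benjamini-Hochberg adjustment over all names at a threshold of 0.05). Of the 14 that fell, 5 belonged to the let-7 family and 4 to miR-125 and miR-99/100. The other 5 were miR-532-3p, miR-483, miR-378, miR-484 and miR-1224. The 2 that rose were miR-204* and miR-489. In bulk liver, fewer cells of a type and less RNA per cell cannot be told apart.

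The let-7 sequences are shown because all 8 measured members share 1 seed while 5 of them passed the test. Whether members differed from each other was not tested. They are RefSeq mature sequences (rat assembly GRCr8), matched by miRNA name, since probe sequences and their build were not given in the sources used here. Of the 16 names, 15 matched. In each line, written 5′ to 3′, capitals mark the seed, bases 2 to 8.
let-7a: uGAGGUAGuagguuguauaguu
let-7b: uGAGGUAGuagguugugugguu
let-7c: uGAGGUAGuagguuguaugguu
let-7e: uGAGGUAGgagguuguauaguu
let-7f: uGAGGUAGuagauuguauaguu
let-7d: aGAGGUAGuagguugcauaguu
let-7i: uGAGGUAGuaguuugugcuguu
miR-98: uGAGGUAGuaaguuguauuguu
Counted from the 5′ end, with the base of let-7a first, let-7c differed from let-7a by A19G, let-7e by U9G and let-7f by G12A. let-7b differed by A17G and A19G, and let-7d by U1A and U16C. miR-98 differed by G11A and A19U, and let-7i by G12U, A17G, U18C and A19U. How far a probe for one member also captures another was not tested.

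The lin-4 relatives (miR-125) and the miR-99/100 sequences are shown because they carry other seeds and lie beside let-7 genes.
miR-125b-5p: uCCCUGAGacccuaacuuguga
miR-125a-5p: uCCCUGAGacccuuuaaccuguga
miR-100: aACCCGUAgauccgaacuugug
miR-99b: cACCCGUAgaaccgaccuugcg
The miRNA with the smallest p and both that rose are shown as called members outside these families. None of them shares a seed with another called miRNA that matched.
miR-532-3p: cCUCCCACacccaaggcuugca
miR-204*: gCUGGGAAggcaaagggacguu
miR-489: aUGACAUCacauauauggcagc
In the RefSeq hairpin records, let-7a-2 has the hairpins of miR-100 and miR-125b-1 within 60000 bases, let-7c-1 has miR-99a, and let-7e has miR-99b and miR-125a. These neighbours are not a complete list. The mature miR-125b-5p sequence was placed at miR-125b-2, on chromosome 11 at base 29732588. The mature let-7c sequence of let-7c-1 starts at base 29688127 of the same strand. At another locus let-7a-1 lies with let-7f-1 and let-7d.

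Levels are given as normalized log2 intensity, for which each array's spots were background-corrected, brought to a common distribution and averaged per name. Levels of different miRNAs come from different probes, so orders by brightness and sums over a list are descriptions only. miR-122, the defining miRNA of hepatocytes, was measured far above the authors' background constant on all 6 arrays, at 13.33, 12.92 and 13.37 at 0 h and 11.98, 12.27 and 13.08 at 48 h.

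**Figure D1:**
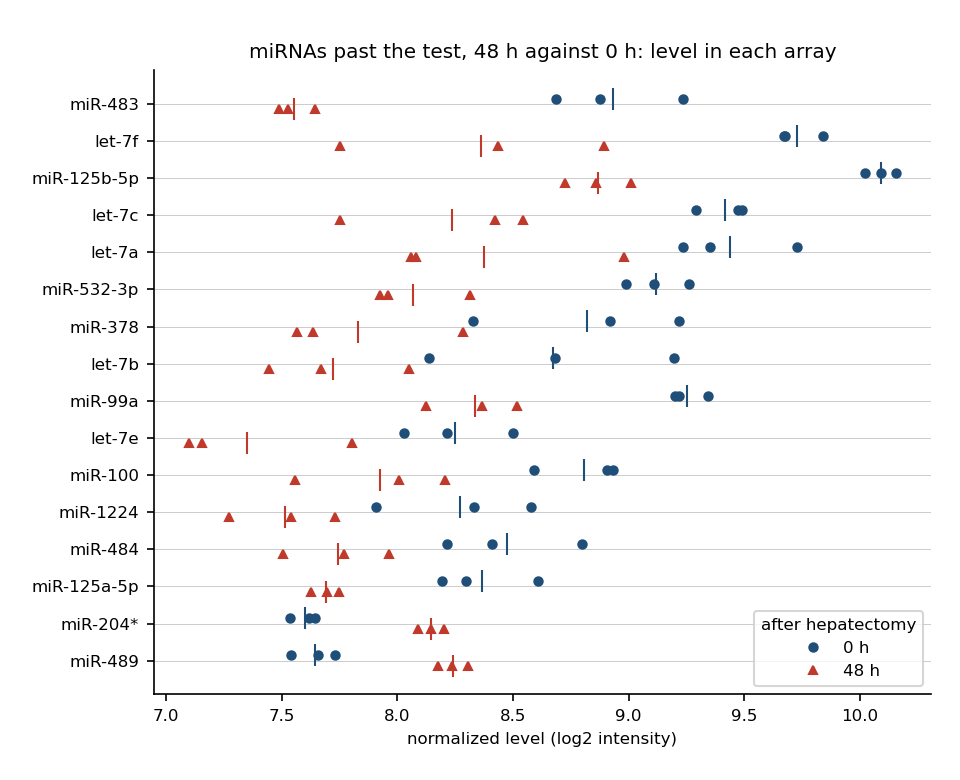
Normalized level (log2 intensity) of the 16 miRNAs past the test in each of the 3 arrays at 0 h (circles) and the 3 at 48 h (triangles), with a tick at each group mean. In every row the groups are separate, with 48 h to the left for the 14 that fell and to the right for miR-204* and miR-489.

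let-7f had levels of 9.67, 9.67 and 9.84 at 0 h and 8.44, 8.89 and 7.75 at 48 h. It fell by 1.37 on the log2 scale (SE 0.28, adjusted p = 0.00997), a 2.58-fold difference. The 0 h arrays lay within a narrow band and all 48 h arrays were below it, with replicate 3 lowest.

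let-7c was at 9.47, 9.29 and 9.49 at 0 h and at 8.42, 8.54 and 7.75 at 48 h, a fall of 2.27-fold (log2 difference -1.18, SE 0.24, adjusted p = 0.00997). let-7a, at 9.35, 9.24 and 9.73, came to 8.08, 8.98 and 8.06, a difference of -1.07 (SE 0.23, adjusted p = 0.0113). Both were lower on every 48 h array, and replicate 2 at 48 h was the one nearest to 0 h for each.

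let-7b was at 8.68, 8.14 and 9.20 at 0 h and at 7.67, 8.05 and 7.45 at 48 h, with a difference of -0.95 (SE 0.24, adjusted p = 0.0286). let-7e was at 8.22, 8.03 and 8.50 and then at 7.15, 7.80 and 7.10, with a difference of -0.90 (SE 0.25, adjusted p = 0.0475). For both, the lowest 0 h array was only slightly above the highest 48 h array, and both of these were replicate 2. At 48 h the let-7e signal was at or below the authors' background constant in 2 of 3 arrays, and for let-7b in 0 of 3.

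The remaining let-7 members did not pass. let-7d was at 9.61, 9.50 and 9.47 at 0 h and at 8.70, 8.87 and 8.69 at 48 h, which did not overlap (difference -0.77, SE 0.23, adjusted p = 0.0638). let-7i was at -0.43 (adjusted p = 0.323) and miR-98 at 0.24 (adjusted p = 0.608), and the arrays of each overlapped between the groups. The list median was -0.92, against 0.09 over all 388 names. It lay between -1.96 and -0.54 over 5 settings. These were the fit as reported, centring on the median or an upper percentile, no normalization and the authors' processed values. The fit without background correction was not among them.

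miR-125b-5p, the mammalian relative of the worm miRNA lin-4, was at 10.09, 10.02 and 10.16 at 0 h and at 8.86, 9.01 and 8.73 at 48 h. It fell by 1.23 on the log2 scale (SE 0.28, adjusted p = 0.0149), 2.34-fold. Replicates were close in both groups in this normalization (SD 0.07 at 0 h and 0.14 at 48 h). In the joint normalization with the sham arrays, used further below, the same 48 h arrays were at 9.53, 9.66 and 8.47 (SD 0.66). The signal above the authors' constant was 1033, 769 and 2169 against 584, 272 and 240 intensity units.

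miR-125a-5p, which has the same seed, was at 8.61, 8.19 and 8.30 at 0 h and at 7.70, 7.75 and 7.63 at 48 h (difference -0.68, SE 0.13, adjusted p = 0.00997). miR-100 was at 8.93, 8.59 and 8.91 and came to 7.56, 8.21 and 8.01 (difference -0.89, SE 0.19, adjusted p = 0.0113). miR-99a was at 9.20, 9.22 and 9.34 and came to 8.52, 8.36 and 8.12 (difference -0.92, SE 0.23, adjusted p = 0.0237). All were lower on every 48 h array.

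miR-99b, of the same list, did not pass. It was at 8.16, 7.96 and 8.13 at 0 h and at 8.01, 7.94 and 8.16 at 48 h, a difference of -0.05 (95% interval from the fit, -0.35 to 0.26, adjusted p = 0.889). Its cluster neighbours let-7e and miR-125a-5p both fell. Whether miR-99b differed from them was not tested.

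miR-532-3p had the smallest p of all names. It was at 9.26, 8.99 and 9.11 at 0 h and at 7.96, 7.93 and 8.31 at 48 h, a fall of 1.05 on the log2 scale (SE 0.19, adjusted p = 0.00659). Its hairpin lies with those of miR-188, miR-362, miR-500 and miR-501 in Clcn5, a chloride transporter gene. None of these neighbours passed, with differences of -0.06, 0.09, 0.22 and 0.15, and the opposite arm of the same hairpin, miR-532-5p, was at 0.18 (adjusted p = 0.575).

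miR-483, whose hairpin lies in the insulin-like growth factor gene Igf2, was at 8.87, 8.69 and 9.23 at 0 h and at 7.53, 7.64 and 7.49 at 48 h. Its fall of 1.38 (SE 0.33, adjusted p = 0.0196), or 2.60-fold, was the largest in absolute size among all names in this fit. The signal above the authors' constant fell from 232, 200 and 552 units to 32, 0 and 40, so the lower level is close to background.

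miR-378, which in mammals lies in an intron of the metabolic coactivator gene Ppargc1b, was at 8.92, 8.33 and 9.22 at 0 h and at 7.63, 7.57 and 8.28 at 48 h (difference -0.99, SE 0.28, adjusted p = 0.0469). The groups were separated by a small gap, and its star strand was at -0.22 (adjusted p = 0.518). miR-484 came from 8.80, 8.41 and 8.22 to 7.77, 7.50 and 7.96 (difference -0.73, SE 0.17, adjusted p = 0.0160). miR-1224, in Vwa5b2, came from 8.33, 7.91 and 8.58 to 7.54, 7.73 and 7.27 (difference -0.76, SE 0.20, adjusted p = 0.0345). Each of miR-378, miR-484 and miR-1224 was at or below the authors' constant in 1 of 3 arrays at 48 h. The RefSeq sequences of miR-532-3p, miR-483, miR-484 and miR-1224 were rich in G and C, 63.6 to 66.7%, against 31.8 to 45.5% for the 5 let-7 members that fell. The other matched falls, miR-378, miR-125a-5p, miR-125b-5p and miR-100, had 50 to 52.4%. miR-99b, which did not pass, had 63.6%, and miR-204*, which rose, had 59.1%.

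The 2 rises were smaller in log2 size than any of the falls. miR-489, in the calcitonin receptor gene Calcr, was at 7.73, 7.66 and 7.54 at 0 h and at 8.18, 8.24 and 8.31 at 48 h (difference 0.60, SE 0.16, adjusted p = 0.0330). miR-204*, from a hairpin in the cation channel gene Trpm3, was at 7.64, 7.62 and 7.54 and then at 8.20, 8.14 and 8.09 (difference 0.55, SE 0.13, adjusted p = 0.0233). The arrays of each group lay close together and well apart from the other group. The guide strand miR-204 was at -0.03 (adjusted p = 0.924). Centring each array on its median in place of quantile normalization left miR-489 at 0.56 (adjusted p = 0.0502) and miR-204* at 0.52 (adjusted p = 0.0748). With either that centring or the 75th percentile, 12 miRNAs were called, all of them lower.

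**Figure D2:**
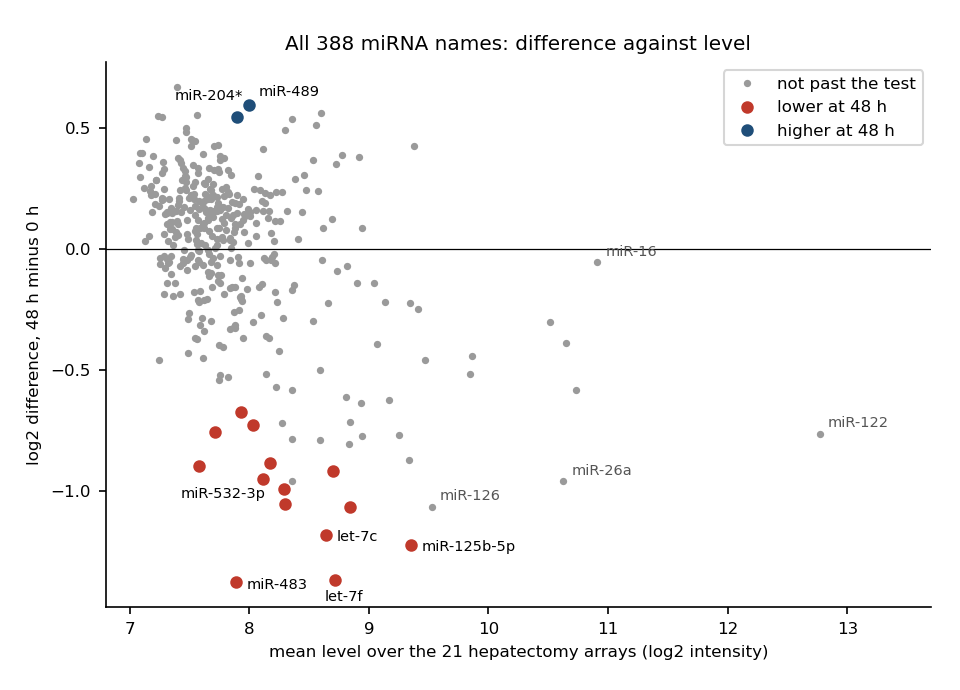
Log2 difference, 48 h minus 0 h, against the mean level over the 21 hepatectomy arrays (log2 intensity) for all 388 names, with the 14 that fell in red and the 2 that rose in blue. Differences run from -1.38 to 0.67, and bright names lie more often below 0.

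Over all 388 names the differences ran from -1.38 to 0.67 with a median of 0.09, 154 of them negative and 234 positive, and the median SE was 0.192. The arrays of the groups did not overlap for 70 names (18%), 34 lower (8.76%) and 36 higher (9.28%), and all 16 called miRNAs were among them. An unadjusted p under 0.05 was reached by 62 names. The 97 brightest names had a median of -0.16 with 63 negative and held 9 of the falls. Names below the median level had a median of 0.15.

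The signal span of an array, the 95th percentile minus the median of its log2 signal before normalization, was 1.89 ± 0.44 at 0 h and 1.23 ± 0.25 at 48 h (SD, n = 3 each, exact permutation p = 0.2, smallest possible 0.1). With the span as a covariate, 38 miRNAs were called, 18 higher and 20 lower, and they included 15 of the 16; miR-378 was at -0.59 (adjusted p = 0.0593). Each group held 2 arrays of high and 1 of low background. Within the high-background arrays the 14 falls were between -0.48 and -1.20. In the low-background pair, 1 array per group, they were between -0.25 and -2.09, and both rises were positive in each. The groups of these 16 did not overlap, so the signs within each class were fixed in advance and do not test the effect of background.

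The count depended on single arrays. Without replicate 1 at 0 h no miRNA passed (limma, 47 at an unadjusted p under 0.05), with adjusted p from 0.0608 to 0.16 for the 16. Their groups did not overlap, so leaving out an array could not turn their signs. The count fell to 6 with the third replicate of the 0 h group left out and to 4 with the first of the 48 h group left out, and was 12 to 19 for any other. miR-532-3p, let-7f, let-7c and miR-125a-5p passed in 5 of these 6 fits, miR-489 in 0 of 6.

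**Figure D3:**
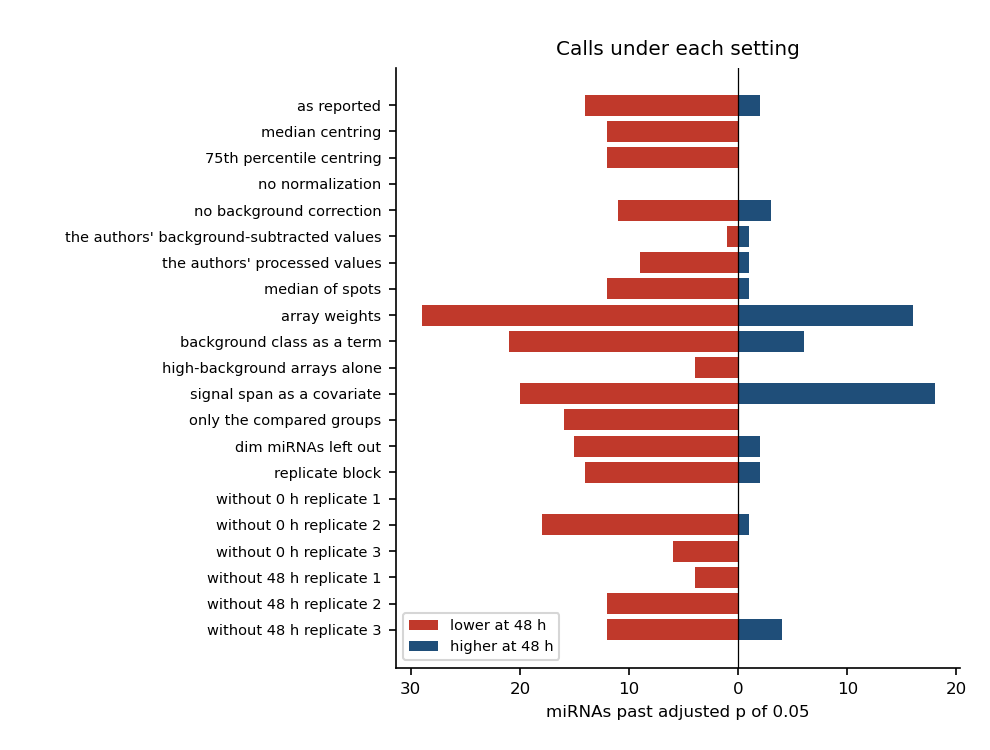
Number of miRNAs past an adjusted p of 0.05, lower at 48 h (left, red) and higher (right, blue), in the fit as reported and under each alternative setting. Counts run from 0, with no normalization or without replicate 1 at 0 h, to 45 with array weights, and falls outnumber rises in all settings with calls except the authors' background-subtracted values, where each is 1.

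Of the miRNAs just outside the threshold, miR-26a, known to repress cyclins and Ezh2, was at 11.48, 11.21 and 11.22 at 0 h and at 10.11, 10.26 and 10.66 at 48 h (difference -0.96, SE 0.28, adjusted p = 0.0517). The groups did not overlap. miR-146b, a miRNA of inflammatory signalling, was at 0.43 (adjusted p = 0.0517), miR-145, a smooth muscle and stellate cell miRNA, at -0.96 (0.0538) and miR-219-5p, a neural miRNA, at 0.45 (0.0791).

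Among the 10 largest differences in each direction, taken over miRNAs brighter than the median of all names and without overlap, some others did not pass either. Besides miR-26a and miR-145 they were miR-126, the endothelial miRNA in Egfl7, at -1.07 (adjusted p = 0.112), and 8 with positive differences. The latter were miR-20b-3p at 0.54, miR-759 at 0.49, miR-96 at 0.43, miR-301b at 0.41, miR-340-5p at 0.39, miR-363* at 0.38, miR-448 at 0.37 and miR-628 at 0.33, with adjusted p from 0.101 to 0.39.

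Several miRNAs known from liver growth did not pass at 48 h. miR-21, which represses Pdcd4, was at 9.18, 9.18 and 10.27 at 0 h and at 8.25, 9.54 and 8.97 at 48 h (difference -0.62, 95% interval -1.59 to 0.34, adjusted p = 0.518). The groups overlapped, and replicate 3 at 0 h and replicate 1 at 48 h lay farthest apart. miR-122 was at -0.76 (95% interval -1.93 to 0.41, adjusted p = 0.517). These intervals allow changes in either direction.

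miR-221 and miR-222, which repress the cell cycle inhibitor p27, were at 0.23 (adjusted p = 0.471) and 0.19 (0.639). At 0.12 (0.671) stood miR-34a, which p53 induces. miR-17-5p of the miR-17-92 cluster was at -0.22 (0.639), miR-16, a repressor of cyclins D and E, at -0.05 (0.934), the myeloid miR-223 at -0.37 (0.471) and the muscle miR-1 at 0.21 (0.649). The signs of miR-222, miR-34a, miR-17-5p, miR-16, miR-223 and miR-1 each turned under at least 1 alternative, so no direction is given for them.

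**Figure D4:**
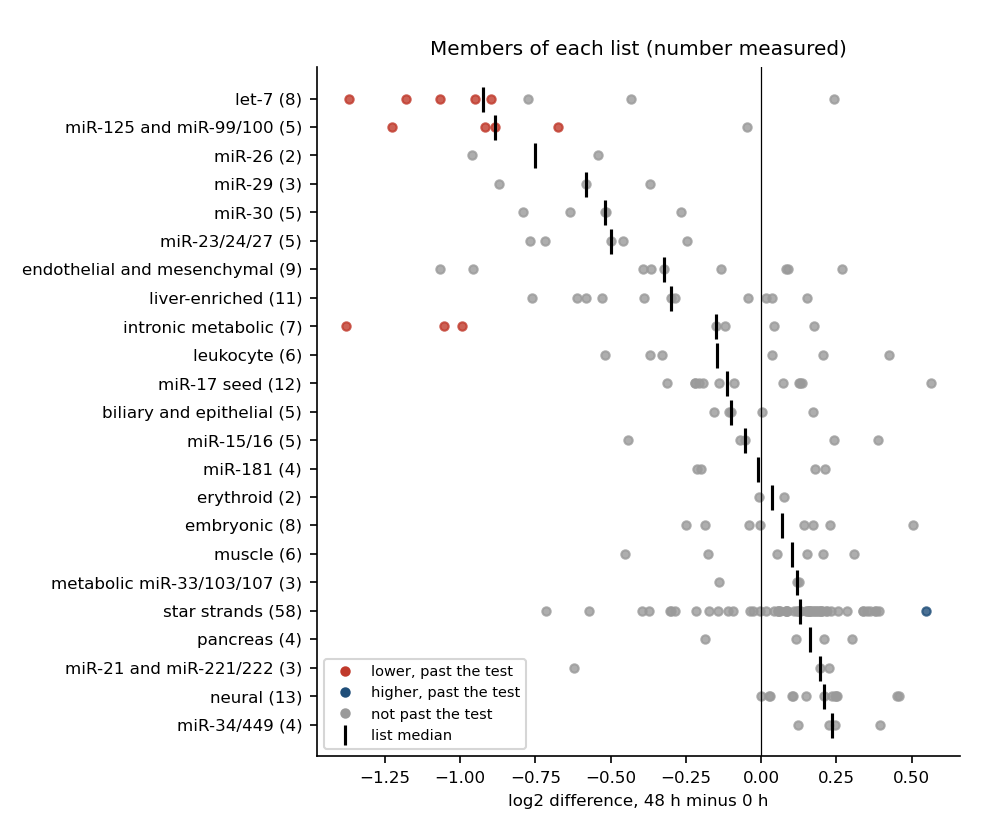
Log2 difference, 48 h minus 0 h, of each measured member of 23 miRNA lists, ordered by list median (black tick), with members past the test in red (lower) or blue (higher). The let-7 and miR-125 with miR-99/100 lists hold 9 of the 14 falls, and most other lists have no member past the test.

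Among the other lists, 3 of 7 intronic miRNAs fell (miR-483, miR-532-3p and miR-378, median -0.15) and 1 of 58 star strands rose (miR-204*, median 0.13). Of all 388 names, 3.61% fell and 0.515% rose, and the intronic list was drawn up with earlier results of these data known, so its count is a description. No member of the remaining 19 passed. The 97 brightest names had a median of -0.16, with 63 negative. Several abundant families had medians below that of all names, with every member negative. These were miR-26 at -0.75 over 2 members, miR-29, which represses collagens, at -0.58 over 3, miR-30 at -0.52 over 5 and miR-23/24/27 at -0.50 over 5. Of single members, miR-29a was at -0.87 (adjusted p = 0.339), miR-30d at -0.79 (0.119), miR-23a at -0.77 (0.213) and miR-27a at -0.72 (0.141).

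The liver-enriched list, of which 11 of 12 names were measured, had a median of -0.30, with miR-101b at -0.61 (adjusted p = 0.325), miR-22 at -0.58 (0.544) and miR-365 at -0.53 (0.112). Growth-related families lay near the median of all names, miR-17 and its relatives at -0.11 over 12, miR-15/16 at -0.05 over 5, miR-181 at -0.01 over 4, the group of miR-21, miR-221 and miR-222 at 0.19 over 3 and miR-34 with miR-449a at 0.24 over 4.

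Markers of other cells also had no member past the test. The leukocyte list (6 of 7 measured) had a median of -0.15, and the sum of its linear levels was 1248 to 1655 at 0 h and 1134 to 1504 at 48 h. For 9 endothelial and mesenchymal miRNAs the median was -0.32, with a sum of 3235 to 4755 at 0 h and 2583 to 3236 at 48 h. The members ran from -1.07 (miR-126) to 0.27, with 6 of the 9 negative. The 2 erythroid miRNAs, miR-144 and miR-451, were at 0.08 and -0.01, and the 5 biliary and epithelial miRNAs had a median of -0.10. The muscle, neural, pancreas and embryonic lists had medians of 0.10, 0.21, 0.16 and 0.07, and miR-33 with miR-103 and miR-107 one of 0.12. The part of other cells in the falls was not tested. Of the 23 list medians, 9 kept their sign over the 5 settings used for the let-7 range (4 for star strands). These were let-7, miR-125 with miR-99/100, miR-26, miR-29, miR-30, miR-23/24/27, liver-enriched, neural and pancreas. No background correction and the authors' background-subtracted values were not among these settings. No direction is given for the other 14 lists.

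**Figure D5:**
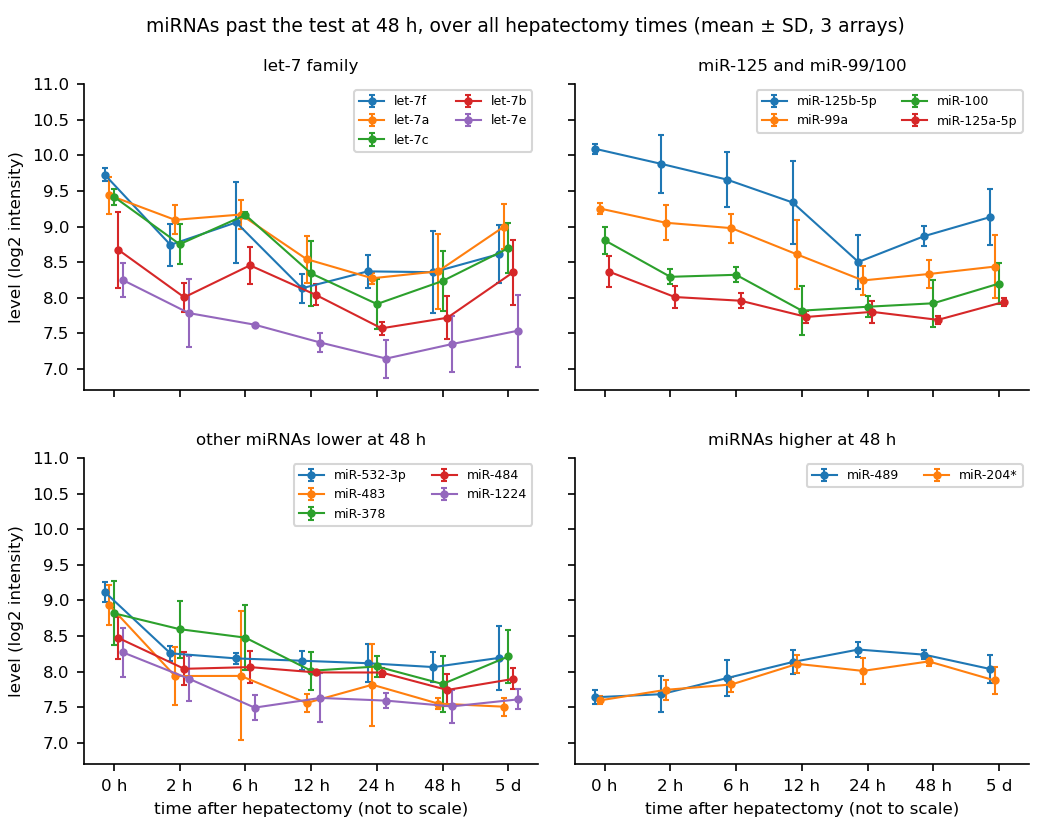
Level (log2 intensity, mean ± SD of 3 arrays) of the 16 miRNAs called at 48 h at each hepatectomy time, in 4 panels by family. Means in the let-7 and miR-125 panels are lowest between 12 and 48 h, while miR-532-3p is at its later level by 2 h.

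The levels at the other hepatectomy times set the 48 h values in sequence. The comparisons of each time with 0 h share the 0 h arrays. miR-125b-5p had means of 9.88, 9.66, 9.34 and 8.50 at the times from 2 to 24 h, then 8.87 at 48 h and 9.13 at 5 d. let-7a stood at 9.09, 9.17, 8.54, 8.27, 8.37 and 9.0 at the same times, and let-7c at 8.75, 9.16, 8.34, 7.91, 8.24 and 8.70. miR-532-3p was between 8.12 and 8.26 at 2, 6, 12 and 24 h and at 8.19 at 5 d, near its 48 h mean of 8.07. miR-483 was at 7.94 at 2 h and 7.51 at 5 d. miR-489 was at 7.68 at 2 h, 8.31 at 24 h and 8.04 at 5 d.

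Between 24 h and 48 h no miRNA differed by the test (0 of 388 by limma, 15 at an unadjusted p under 0.05, and 2 with the signal span as a covariate). The 3 smallest p values belonged to miR-26a, miR-153 and miR-675, each with an adjusted p of 0.433. miR-26a was at 9.34 ± 0.62 at 24 h and 10.34 ± 0.28 at 48 h (difference 1.0, SE 0.28), against 11.30 ± 0.16 at 0 h and 10.99 ± 0.03 at 5 d. miR-153, a neural miRNA, was at 8.62 and then 8.0 (difference -0.62), and miR-675, from the H19 transcript, at 7.39 and then 7.84 (difference 0.45). Of the called miRNAs, miR-125b-5p differed by 0.36 (SE 0.28), let-7c by 0.32 (SE 0.24) and miR-532-3p by -0.05 (SE 0.19) between these times.

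The sham group at 48 h is the control for anaesthesia and surgery at that time. Its arrays stood on another chip layout, so operation and layout cannot be told apart. Normalized over all 30 arrays on the 376 names in both layouts, 9 miRNAs differed between hepatectomy and sham at 48 h (2.39%), 8 lower (2.13%) and 1 higher (0.266%) after hepatectomy. Levels here come from that joint normalization and differ from those above.

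let-7e was at 7.01, 7.64 and 7.09 after hepatectomy and at 8.27, 8.60 and 8.31 after sham (difference -1.15, SE 0.23, adjusted p = 0.00444). let-7b was at 7.51, 7.98 and 7.39 against 8.73, 8.88 and 8.49 (difference -1.07, SE 0.26, adjusted p = 0.0188). miR-378 was at 7.47, 7.36 and 8.08 against 8.43, 8.53 and 8.51 (difference -0.85, SE 0.20, adjusted p = 0.0151). miR-489 was higher, at 8.11, 8.36 and 8.14 against 7.53, 7.35 and 7.63 (difference 0.70, SE 0.17, adjusted p = 0.0191). These 4 had also passed against 0 h, a comparison that shares the hepatectomy arrays.

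The other 5 had not passed against 0 h. miR-23a was at -1.10 against sham (adjusted p = 0.00444), miR-361 at -0.70 (0.00444), miR-199a-3p at -0.69 (0.00825), miR-151 at -0.69 (0.0232) and miR-99b at -0.48 (0.0219). Against 0 h they were at -0.77, -0.12, -0.37, -0.15 and -0.05. The largest falls against 0 h did not pass against sham, with let-7f at -0.37 (adjusted p = 0.730), miR-125b-5p at -0.33 (0.688) and miR-483 at -0.16 (0.898), and miR-532-3p at -0.58 (0.0788) and miR-125a-5p at -0.45 (0.0849). The count against sham was 0 without hepatectomy replicate 1, 25 without hepatectomy replicate 2, and 5 and 3 without sham replicates 1 and 2.

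A constant offset per miRNA between the layouts cancels in the change from 24 h to 48 h. Its difference between hepatectomy and sham passed for 0 of 376 miRNAs (limma, 18 at an unadjusted p under 0.05). The 3 smallest p values belonged to miR-148b-3p, at -0.92 (SE 0.26, adjusted p = 0.565), miR-153, at -0.77 (0.839), and let-7i*, at -0.89 (0.926). In hepatectomy liver miR-148b-3p went from 9.29 to 8.35 and in sham liver from 8.21 to 8.19. Between the sham times themselves 0 of 376 miRNAs passed (limma, 2 at an unadjusted p under 0.05).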

How the data were processed

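The deposited tables hold raw, linear intensity of each spot for 21 hepatectomy arrays (15 spots per name) and 9 sham arrays (22 spots), per the file headers. The authors also deposited a background-subtracted median intensity per miRNA, found here to equal the raw median minus 1 constant per array. Deposited processed values (323 names) were taken as log2 of that intensity, scaled between arrays before deposit, as found here from the values. Within each array the ranks were the same (Spearman correlation 1). Processed medians were 6.05 and 5.99 for 0 h replicate 2 and 24 h replicate 1, where raw median minus constant was 48 and 280. The scaling step was not tested. Image software and genome build were not given in the sources used here. Array medians were 544 to 1120 at 0 h and 576 to 1328 at 48 h, the authors' constants 456 to 1144, and 0.585% of spots were missing. 3 arrays per group limit the precision.

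Raw intensity was corrected with normexp (offset 50), log2 transformed, quantile normalized and averaged per name. limma 3.58.1 in R 4.3.3 was fitted over the 21 hepatectomy arrays (14 residual degrees of freedom), or over all 30 after averaging spots (20 degrees of freedom), two-sided, with Benjamini-Hochberg adjustment over all names. The offset shrinks differences of dim names. Array-level values were compared by exact permutation. The scripts were tested on simulated data.

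Groups came from the labels. Named were all calls where 30 or fewer, the 10 largest differences each way among bright names without overlap, and a set of known liver miRNAs; for the other contrasts, all calls up to 10 or the 3 smallest p values. The miRNAs just outside the threshold were added to describe it. Members and lists were chosen with earlier results of these data known. Replicate letters of 2 arrays at 48 h (replicates 1 and 3) and 2 at 2 h (1 and 2) were exchanged between the raw and processed tables; the raw tables were followed, which leaves groups as they are. Chip names without an arm were matched to RefSeq arms by hand.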

Additional observations from a re-analysis of the deposited data

How the results depend on the processing

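The count of 16 calls against 0 h stayed within 1.5 times with median or 75th percentile centring (12 each, all among the 16), no background correction (14, of which 12 were shared), the median of spots (13, 9 shared), the 6 arrays alone (16, all lower, 11 shared) and dim miRNAs left out (17, 14 shared). Both rises were lost with either centring and on the 6 arrays alone. The count was 0 with no normalization (44 at an unadjusted p under 0.05). It was 2 with the authors' background-subtracted values (1 shared) and 10 with their processed values (9 shared). On the high-background arrays it was 4, of which only 2 were among the 16. It was 45 with array weights (whose estimation stopped before convergence), 27 with background class as a term and 38 with signal span as a covariate (15 shared). With background class or array weights all 16 were among the calls. Leaving out 1 array gave 0 to 19. Between 24 h and 48 h, 2 were called with signal span as a covariate and 0 under every other setting tried. The count of 9 against sham became 18 under median centring, 33 under 75th percentile centring, 0 with no normalization, 1 with background-subtracted values, 25 with processed values, 29 with array weights and 0 to 25 with 1 array left out, a choice made after seeing the data. The change from 24 h to 48 h against sham gave 0 calls throughout. The cause of these differences was not tested.

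All 16 called miRNAs kept their direction in every setting that measured them. Where arrays were left out of the same levels this was fixed in advance, since the groups of these miRNAs did not overlap. The median of all names was 0.47 with no normalization and -0.09 with 75th percentile centring, against 0.09. Signs turned for uncalled miRNAs of the fixed set. With no normalization miR-17-5p was at 0.28 and miR-223 at 0.030, and with 75th percentile centring miR-34a was at -0.055. With no background correction miR-16 was at 0.016. With background-subtracted values miR-222 was at -0.27, miR-34a at -0.18, miR-16 at 0.57 and miR-17-5p at 0.18. With processed values miR-222 was at -0.072 and miR-17-5p at 0.00278, and with the median of spots miR-222 was at -0.029 and miR-34a at -0.012. On the high-background arrays miR-223 was at 0.17. With signal span as a covariate miR-16 was at 0.55, miR-17-5p at 0.13 and miR-1 at -0.22. With 1 array left out miR-222 ran from -0.087 to 0.42 and miR-16 from -0.60 to 0.29. With no normalization miR-99b was at 0.078 against sham, and let-7i* at 0.12 in the change against sham.

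Same-numbered arrays of the 0 h and 48 h groups did not deviate together under the raw tables' letters (correlations of -0.06, -0.06 and -0.06). Under the letters of the processed table the correlations were 0.27, -0.06 and -0.20. The numbers were not taken as pairs. With the replicate number as a block the count was 16, 15 of them shared with the fit reported, and 16 again with the letters of the processed table, a setting added after seeing the data. The block gave 0 calls against 24 h, 10 against sham and 0 for the change. With 3 arrays per group, and several falls ending near the background constant, small changes of dim miRNAs could not be measured.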
